A study of Mus musculus with 96 samples.

Results

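The effect of losing Bmal1 in the heart late in the subjective day was measured by comparing tamoxifen with vehicle in the libraries labelled ct34 and ct58, the hours that fall at circadian time 10 within a day of 24 h. These are 16 of the 96 libraries in the series: 8 from tamoxifen hearts (4 female, 4 male) and 8 from vehicle hearts (4 female, 4 male), with 2 libraries per treatment, sex and label. All came from mouse ventricle and all carry the genotype label iCSBmal1 KO, an inducible, cardiomyocyte-specific knockout of Bmal1, so the vehicle hearts hold the same alleles without the inducing drug, and drug and knockout cannot be told apart. The labels give neither the promoter of the recombinase, nor the age of the mice, nor whether each library is a separate animal, so every p-value below reflects only how far these libraries spread, which may be technical. Labels in ct were taken as hours of circadian time, and the other 80 libraries served to test which changes are particular to this time.

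BMAL1 (gene Arntl) pairs with CLOCK or NPAS2 and binds E-box elements to switch on genes that include its own repressors, the Period and Cryptochrome genes. Nr1d1 and Nr1d2 (REV-ERB) repress, and the ROR receptors activate, Arntl itself through ROR elements, while DBP, TEF and HLF activate and NFIL3 represses genes through D-boxes. In the heart this clock is known to time genes of fuel choice, ion channels and cell growth, and late day is when Arntl transcript runs low and Per transcript climbs.

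The promoter stretches below carry these elements in genes on which the results turn: 3 clock genes and Slc41a3 with E-boxes, and Per3 with a pair of D-boxes. Each is upstream of a RefSeq start on GRCm38.p6 and written on the strand of the gene; those of Slc41a3 and Tef lie inside the gene spans of GENCODE M21, so these starts are not the outermost ones annotated there. Capitals mark the E-box CACGTG, or in Per3 the D-box TTANGTAA. They lie at chr3:95882263-95882352 (Ciart, minus strand), chr15:81802519-81802578 (Tef, plus), chr10:85185079-85185138 (Cry1, minus), chr6:90619006-90619065 (Slc41a3, plus) and chr4:151044811-151044880 (Per3, minus).
Ciart: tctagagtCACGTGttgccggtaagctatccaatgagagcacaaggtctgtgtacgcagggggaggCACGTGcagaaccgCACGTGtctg
Tef: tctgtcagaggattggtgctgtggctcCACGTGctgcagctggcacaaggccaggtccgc
Cry1: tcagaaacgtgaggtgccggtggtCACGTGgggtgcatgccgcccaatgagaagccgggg
Slc41a3: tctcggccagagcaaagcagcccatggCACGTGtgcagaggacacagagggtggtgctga
Per3: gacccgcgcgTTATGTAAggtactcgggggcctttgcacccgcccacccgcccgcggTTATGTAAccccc
Over windows of 250 bases before to 50 after the start, on both strands, CACGTG occurred in 8 of the 24 clock list members with a promoter in the table (33.3%), against 11.5% of the 11148 tested genes with one. A gene was counted if any of its promoters held the letters. Of all 32851 promoters, counted singly and so not a like measure, 7.15% held them. Counted per gene, the share was 10.8% among genes that rose with tamoxifen and 13.5% among genes that fell. Of those 8 members, Cry1 rose, Ciart, Tef and Tspan4 fell, and Per1, Bhlhe41, Coq10b and Klf15 did not pass the test. TTANGTAA occurred in 3 of the 24 members (12.5%) and in 1.89% of tested genes, and the ROR element TAGGTCA in 2 (8.33%) and 2.26%. None of the 3 letter strings contains another, and a match is a description of the sequence, not of binding.

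Totals ran from 11584878 to 19551112 counts per library, and no pair of libraries in a group was alike within sampling noise. Some libraries stood apart. In the libraries labelled Veh_M_ct34_13, Veh_M_ct34_14 and Veh_M_ct58_32 (vehicle males), genes annotated as TEC (unconfirmed transcripts) took 0.141%, 0.178% and 0.126% of counts. This was above every library of the other 3 groups in the series (at most 0.111%). Without these 3 libraries, Veh_M_ct58_33 is the only vehicle male left at this time, so such fits hold no spread within vehicle males. On the leading principal component (40.3% of variance) the 4 vehicle males lay at 27.7 to 76.7 and the other 12 libraries at -22.5 to 1.84. The libraries labelled Tam_F_ct58_565, Tam_M_ct34_526 and Tam_M_ct58_562 (1 tamoxifen female and 2 tamoxifen males) held 2.85, 5.17 and 4.83 CPM of Arntl (counts relative to the library total), against 10.6 to 13.7 CPM in the other 5 tamoxifen libraries, and lay nearer to vehicle for many genes below. Whether the labels of these 3 libraries hold was not tested, and every tamoxifen value below includes them unless it says otherwise. Myl7, an atrial myosin light chain, stood at 471 CPM in Tam_M_ct34_526 and 112 CPM in Veh_F_ct34_423, against at most 1.55 CPM in the other 14. The numbers in the titles fall in separate runs for vehicle males, vehicle females and tamoxifen hearts, so a batch that follows these numbers and treatment cannot be told apart.

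The targeted gene was higher, not lower, with tamoxifen at this time. Levels from here on are CPM scaled by TMM. Arntl (ENSMUSG00000055116.8, chromosome 7, 113207465 to 113314126 on GRCm38) stood at 2.0, 1.03, 2.22 and 1.17 CPM in the vehicle females (here and below, in each list of 4, those of ct34 before those of ct58) and at 1.34, 1.44, 6.02 and 2.82 CPM in the vehicle males. In the tamoxifen females it stood at 12, 13.2, 2.85 and 10.7 CPM, and in the tamoxifen males at 5.16, 11.8, 4.97 and 14.1 CPM. The groups overlapped: the 3 lowest tamoxifen libraries lay below Veh_M_ct58_32, and the other 5 lay above every vehicle library. The log2 change, tamoxifen minus vehicle with sex as a block, was 2.07 ± 0.37 (SE, adjusted p = 0.00408). Counts summed over the whole gene do not show whether part of it was deleted, and at this hour the vehicle hearts were at their lowest Arntl level of the 6 times sampled, so this gene cannot check the treatment labels here.

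Across all genes, 1376 of 15806 tested passed an adjusted p of 0.05 in edgeR's quasi-likelihood test (8.71%), 740 higher with tamoxifen (4.68%) and 636 lower (4.02%). Of these, 498 changed at least 1.5-fold, 246 up and 252 down, and the median size of a called change was 0.49 on the log2 scale. Without the 3 vehicle males with the high TEC share 162 genes were called (68 higher, 94 lower), 147 of them also among the 1376. Without the 3 tamoxifen libraries with low Arntl 1112 were called, 786 of them among the 1376; those libraries were chosen on the targeted gene, so genes that move with it grow by that choice. All 8 tamoxifen libraries lay above all 8 vehicle libraries for 51 genes (0.323% of those tested) and below for 42 (0.266%).

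Of the 29 genes on the 3 clock lists, 16 passed the test (55.2%, against 8.71% of all genes), 7 higher and 9 lower. The lists were chosen with earlier results of these data known, so these shares and the medians below are a description. The activating arm moved up: 5 of 7 members rose and none fell, with a median log2 change of 0.90 against -0.02 over all tested genes. The repressors and outputs moved mostly down, with 1 of 10 up and 4 down (median -0.37) and 1 of 12 up and 5 down (median -0.48). Leaving out any single library kept 13 of the 16 calls. Rorb was lost in 9 of these 16 fits, Nampt in 7 and Ciart in 1. All 16 held without the 3 low-Arntl libraries, but that set was chosen on Arntl, so it does not check these calls. Without the 3 high-TEC vehicle males 7 held: Arntl, Clock, Nfil3, Nampt, Per2, Per3 and Tef.

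**Figure D1:**
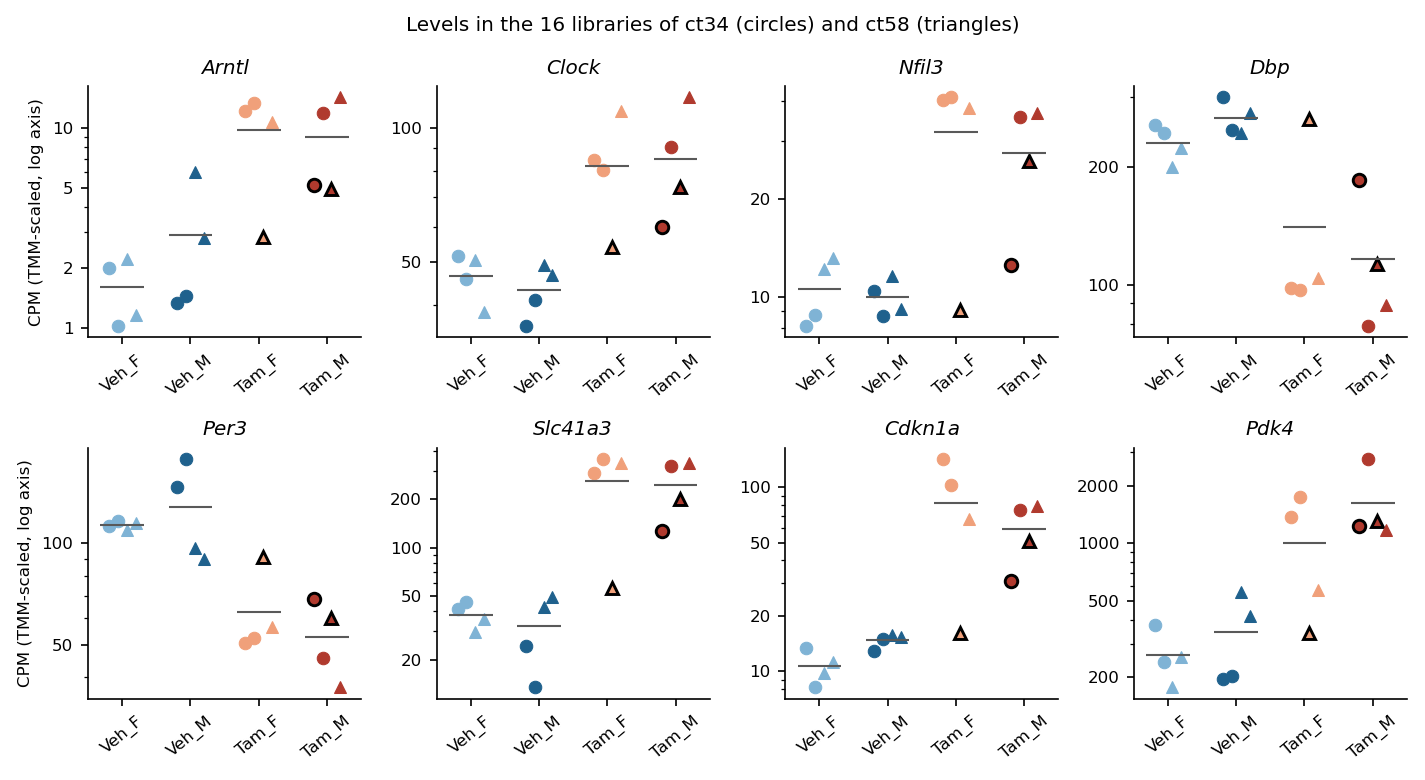
Levels of 8 genes in the 16 libraries on a logarithmic CPM axis, by group, with circles for ct34, triangles for ct58 and bars at group means. Symbols with a black edge are the 3 tamoxifen libraries with low Arntl; for Dbp, Tam_F_ct58_565 at 264 CPM lies among the vehicle libraries while 6 of the other tamoxifen libraries lie at 79 to 113 CPM and Tam_M_ct34_526 at 185 CPM.

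Among the activators, Clock, the partner of BMAL1, was the clock list member whose groups did not overlap. Its vehicle levels ran from 36 to 51.7 CPM (median 46.3), and its tamoxifen levels were 84.7, 80.5, 54 and 109 CPM in females and 60, 90.4, 73.7 and 117 CPM in males. Every tamoxifen library was above every vehicle library, the closest being Tam_F_ct58_565, and the change was 0.90 ± 0.14 (adjusted p = 0.00193). Npas2, the paralog of Clock, rose by 1.55 ± 0.29 (adjusted p = 0.00544), from 1.27 to 3.49 CPM in vehicle to 8.83 to 11 CPM in the 5 tamoxifen libraries with more Arntl, with 2.36, 3.08 and 6.46 CPM in the other 3. Rorb, a ROR receptor, rose by 0.87 ± 0.25, from a median of 1.88 to 3.98 CPM. Rora (-0.20 ± 0.07, adjusted p = 0.0847) and Arntl2 (-0.27 ± 0.13, adjusted p = 0.157) did not pass.

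The repressors did not share a direction. Per3 fell by 1.07 ± 0.17 on the log2 scale (adjusted p = 0.0018). Vehicle levels were 90.2 to 178 CPM (median 114) and tamoxifen levels 37.4 to 91.1 CPM (median 54.4), with overlap only between Tam_F_ct58_565 at 91.1 CPM and Veh_M_ct58_33 at 90.2 CPM. Per2 fell by 0.97 ± 0.21 (adjusted p = 0.0107), from 40.4 to 130 CPM (median 59.6) to 25.1 to 47.8 CPM (median 33.5), ranges that overlap. Ciart, a repressor of CLOCK and BMAL1 whose promoter above holds 3 E-boxes, fell 3.03-fold, from a median of 34.3 to 7.17 CPM, and this call was lost without Tam_M_ct58_594. Nr1d2 fell by 0.76 ± 0.15, from a median of 293 to 155 CPM. Cry1 rose by 0.73 ± 0.16 (adjusted p = 0.0145), from 11.1 to 24.1 CPM in vehicle to 17 to 40.9 CPM with tamoxifen, where the 3 low-Arntl libraries lay within the vehicle range. Nr1d1, the paralog of Nr1d2, had vehicle levels of 95.1 to 165.7 CPM and tamoxifen levels of 91.6 to 184 CPM, a change of -0.11 ± 0.14 (adjusted p = 0.59). Per1, Cry2, Bhlhe40 and Bhlhe41 did not pass either, with changes of -0.47, 0.16, -0.24 and -0.27.

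Among the outputs, the D-box activators Dbp and Tef fell and the D-box repressor Nfil3 rose. Dbp fell by 0.95 ± 0.21 (adjusted p = 0.0143), from 200 to 299 CPM in vehicle to a tamoxifen median of 101 CPM. Tef fell by 0.77 ± 0.11 (adjusted p = 0.00139), from 299 to 496 CPM (median 419) to 192 to 330 CPM (median 223), and only Tam_F_ct58_565 reached the vehicle range. Nfil3 rose by 1.54 ± 0.26 (adjusted p = 0.00274). Its 8 vehicle libraries lay at 8.13 to 13.2 CPM, Tam_F_ct58_565 and Tam_M_ct34_526 at 9.1 and 12.5 CPM, Tam_M_ct58_562 at 26.1 CPM and the other 5 tamoxifen libraries at 35.7 to 40.9 CPM. Usp2, a deubiquitinase, fell by 0.77 ± 0.15, Tspan4 by 0.47 ± 0.11 and Nampt, the rate-limiting enzyme of NAD salvage, by 0.61 ± 0.17. The 6 others (Hlf, Coq10b, Klf15, Wee1, Spon2, Por) did not pass, with changes of -0.60 to -0.15.

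Outside the clock lists, Slc41a3, Cdkn1a, Pnpla3, Pdk4, Adam19 and Irs1 were among the rises that held in each set of 15 libraries. They also held without the 3 high-TEC vehicle males. All of them held without the 3 low-Arntl libraries too, but that set was chosen on Arntl and is no check of genes that move with it. Slc41a3, a magnesium transporter gene (ENSMUSG00000030089.15, chromosome 6, 90604725 to 90646412), stood at 41.5, 45.5, 29.9 and 35.7 CPM in vehicle females and 24.4, 13.4, 42.4 and 49.5 CPM in vehicle males. With tamoxifen it stood at 291, 357, 56.2 and 334 CPM in females and 127, 321, 201 and 334 CPM in males. The groups did not overlap, and the rise was 7.17-fold (2.84 ± 0.33, adjusted p = 0.000495). Cdkn1a, the cell cycle inhibitor p21, went from 8.17 to 15.8 CPM (median 13.1) to 16.1 to 143 CPM (median 71.1), also without overlap, a rise of 5.54-fold (2.47 ± 0.33, adjusted p = 0.000925). Its lowest tamoxifen library was again Tam_F_ct58_565, only just above Veh_M_ct58_32 at 15.8 CPM. Pnpla3, a lipid droplet hydrolase, rose 7.7-fold (2.94 ± 0.40) from a very low level, 0.134 to 0.754 CPM in vehicle against 0.548 to 6.12 CPM.

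Fuel and insulin genes moved in both directions. Of 27 genes of glucose, glycogen and insulin, 4 rose and 1 fell, with a median of 0.12, against 4.68% higher and 4.02% lower over all tested genes. Pdk4, the kinase that shuts off pyruvate dehydrogenase, stood at 178 to 374 CPM in vehicle females and 197, 204, 557 and 416 CPM in vehicle males. With tamoxifen it stood at 1363, 1736, 342 and 571 CPM in females and 1230, 2752, 1301 and 1168 CPM in males, which overlap with vehicle only through Tam_F_ct58_565. The rise was 2.08 ± 0.32 (adjusted p = 0.00174). Irs1, an insulin receptor substrate, rose by 1.02 ± 0.16 (adjusted p = 0.00208), from 22 to 42.7 CPM to 46.2 to 98.2 CPM with no overlap. Irs2 and the glycogen targeting subunit Ppp1r3c also rose (0.58 and 0.62), and Pfkfb2, the heart isoform of a regulator of glycolysis, fell by 0.70. Pfkfb2 did not pass without the high-TEC vehicle males (-0.43, adjusted p = 0.217) or in females only (-0.33, adjusted p = 0.278). Of 26 fatty acid oxidation genes 2 rose (Etfdh and Acot2) and none fell, a share near the 8.71% called over all genes. Without the high-TEC vehicle males neither passed, at 0.22 for Etfdh (0.54 with them) and 0.31 for Acot2 (0.48 with them). Of 16 genes of triglyceride storage, Pnpla3 rose and Dgat2, the last enzyme of triglyceride synthesis, Ces1d and Mgll, a monoglyceride lipase, fell, against the same shares of all genes. The Ces1d call (-1.68, adjusted p = 0.0392) held in 5 of the 16 fits that leave out 1 library, that of Dgat2 in all 16. Without the high-TEC males Dgat2 passed (adjusted p = 0.0366) and Ces1d did not (adjusted p = 0.154). None of 20 nuclear genes of oxidative phosphorylation passed (median -0.03).

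Ion channel and contractile genes also split. Of 20 potassium channel genes 4 rose and 3 fell (median 0.26), and of 14 sodium, calcium and HCN channel genes 1 rose (Hcn2) and 1 fell, against 4.68% higher and 4.02% lower over all tested genes. Kcne1, an accessory subunit of a repolarizing potassium current, rose by 1.12 ± 0.26 and Hcn2, a pacemaker channel, by 1.07 ± 0.20 (26.2 ± 9.85 to 54 ± 13.8 CPM, SD, n = 8 each). Without the high-TEC males neither passed, at 0.84 for Kcne1 (adjusted p = 0.187) and 0.85 for Hcn2 (adjusted p = 0.0617). Kcnv2, a silent potassium channel subunit, fell by 0.83 ± 0.15. Clcn1, the muscle chloride channel, fell by 1.59 ± 0.24 from 26.5 to 69.5 CPM to 5.49 to 22.6 CPM with no overlap. Both calls held when any single library was left out. Without the high-TEC males Kcnv2 stood at -0.76 and Clcn1 at -1.35. In females only neither passed (adjusted p = 0.0775 for Kcnv2 and 0.0695 for Clcn1). Kcnj11, the pore of the ATP-sensitive potassium channel, passed (0.67 ± 0.20, adjusted p = 0.0445) with only the vehicle males apart: these stood at 42.3 to 81.7 CPM, vehicle females at 161 to 178 CPM, and all 8 tamoxifen libraries at 143 to 213 CPM. In females only, its change was -0.000626 (adjusted p = 0.999). Of 16 calcium handling genes 3 rose and 2 fell. Strit1, which codes for a small peptide that acts on the calcium pump, fell by 1.32 ± 0.18 (adjusted p = 0.00108). Of 21 sarcomere genes, Mybpc3 and Myom1 rose and the titin cap gene Tcap and the myosin gene Myh7b fell. None of the 4 passed without the high-TEC males: Mybpc3 went from 0.36 to 0.22, Myom1 from 0.43 to 0.18 and Myh7b from -0.95 to -0.51, while Tcap kept most of its size (-1.08 and -0.997, adjusted p = 0.111).

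**Figure D2:**
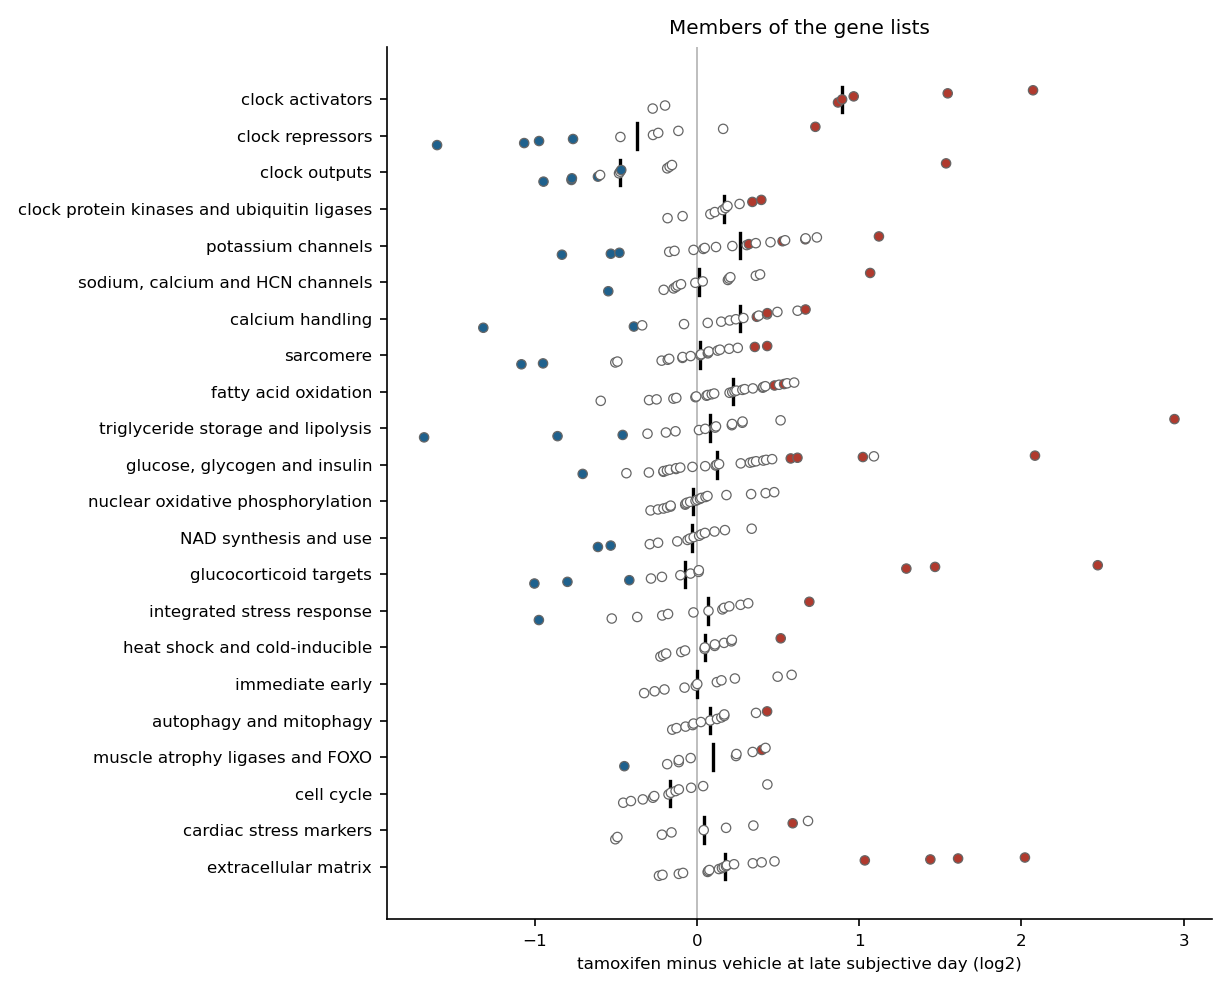
Log2 change with tamoxifen at late subjective day of each tested member of the clock and pathway lists, with red for genes that rose, blue for genes that fell, white for genes that did not pass, and a black bar at the list median. The clock activators have their median at 0.90, while most other lists have medians between -0.2 and 0.3 with a few members far from 0.

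Stress and matrix genes held a few calls each, to be read against 4.68% of all tested genes higher and 4.02% lower. Ddit3 (CHOP), a transcription factor of the integrated stress response, stood at 25.7 to 54.2 CPM in vehicle and 15.3 to 21.8 CPM with tamoxifen, with no overlap, a fall of 0.97 ± 0.14 (adjusted p = 0.0012). On its list of 13, Mthfd2, a mitochondrial folate enzyme, rose by 0.69 and the other 11 did not pass. Of 12 glucocorticoid targets, Cdkn1a, Ddit4 and Angptl4 rose and the metallothioneins Mt1 and Mt2 and the chaperone Fkbp5 fell. The Angptl4 call (1.47, adjusted p = 0.0465) held in 3 of the 16 fits that leave out 1 library. Without the high-TEC males Cdkn1a passed, while Angptl4, Mt1 and Mt2 did not (adjusted p = 0.356, 0.0603 and 0.1145). Of 20 extracellular matrix genes 4 rose (Comp, Ptn, Cilp, Thbs4) and none fell, with a median of 0.17. Comp, a cartilage matrix protein, stood at 0.67 to 5.22 CPM in vehicle and 1.54 to 18.5 CPM with tamoxifen, a rise of 2.02. Without the high-TEC males none of the 4 passed, though Comp stood at 2.18 (adjusted p = 0.0991) and Ptn, a secreted growth factor, at 1.89 against 1.61 with them (adjusted p = 0.11). None of 11 immediate early and none of 12 cell cycle genes passed.

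Few markers of other cell types of the ventricle passed the test. Summed cardiomyocyte markers ran from 41960 to 52280 CPM in vehicle and 42800 to 49830 CPM with tamoxifen. The 8 fibroblast markers summed to 1850 to 2693 CPM (median 2071) in vehicle and 1637 to 3124 CPM (median 2645) with tamoxifen, beside the matrix genes above; 0 of 8 passed, and their part in that result was not tested. Endothelial markers summed to 1175 to 2143 CPM against 1007 to 1425 CPM, and 2 of 10 fell (Flt1 and Esam), against 4.02% of all tested genes lower. Cd68, 1 of 11 macrophage markers, and S100a8, 1 of 3 neutrophil markers tested, fell as well. None of these 4 passed without the high-TEC vehicle males, where Flt1 went from -0.36 to -0.18, Esam from -0.37 to -0.14, Cd68 from -0.43 to -0.34 and S100a8 from -1.43 to -0.83. No marker on these lists was at 0 in all 16 libraries. In bulk tissue, fewer cells of a type and less RNA per cell cannot be told apart.

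Females and males differed widely in the size of the change. The interaction of treatment and sex passed for 4425 of 15806 genes (28%), with the female effect more positive for 2107 and less positive for 2318 (3128 and 1692 when scaled by library size alone, which moved the median difference over all genes from 0.06 to 0.20 on the log2 scale). The 4 genes of smallest p included Nt5c1a, a nucleotidase, with a female minus male difference of -4.01. It stood at 0.683 to 1.34 CPM in vehicle males, 12.9 to 18.3 CPM in vehicle females and 7.30 to 18.5 CPM in the 8 tamoxifen libraries, so the vehicle males were the group that stood apart. Adcy9 (-2.32) and Pm20d2 (-3.48) were also among them. Without the 3 high-TEC vehicle males the male effect rests on a single vehicle library, Veh_M_ct58_33, so genes passing there are not counted. The median difference over all genes then went from 0.06 to -0.00082. Of the clock members 4 differed: Arntl2 (0.71), Cry2 (-0.48), Nampt (-0.79) and Wee1 (-0.80), against 28% of all genes. Without the 3 high-TEC vehicle males these 4 stood at 0.45, -0.42, -0.37 and -0.52, again with a single vehicle male left. Within females alone 101 genes passed (36 higher, 65 lower) and within males alone 5431, and 5 and 15 of the 16 called clock genes did.

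Which of these changes belonged to this time of day was tested in a fit of all 96 libraries, as the effect at circadian time 10 minus its mean at the other 5 times. Of 17107 genes 1 passed, Arntl (0.00585%), with a difference of 1.93 ± 0.31 (adjusted p = 0.000281). At an unadjusted p of 0.05, 1401 genes passed (8.19%), and 10 of the 29 clock members. The changes of late day were thus mostly not shown to differ from those of other hours. Of the 1376 called genes, 1365 had the same sign in the mean of the other 5 times. Those libraries are separate, but they share the runs of title numbers and hold further high-TEC vehicle males. What this adds to the shared sign was not tested, and the share over all tested genes was not computed. Of the 1376, 1199 were larger in size than the mean of the other 5 times, and 644 were at their largest of the 6 times. Both counts only describe genes chosen for their change at this time, a choice that favours larger sizes here. The shares over all tested genes were not computed for them. The effect differed from that of mid subjective day (circadian time 6) for 1 gene, Arntl again (2.18, adjusted p = 0.0016). It differed from that of early subjective night (circadian time 14) for 0 genes. At an unadjusted p of 0.05, 638 genes (3.73%) passed against mid subjective day and 1141 (6.67%) against early subjective night. Both of these times hold a tamoxifen male low in Arntl that stayed in the fit. Tam_M_ct54_556 held 1.31 CPM and Tam_M_ct38_531 held 2.96 CPM (counts relative to the library total).

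**Figure D3:**
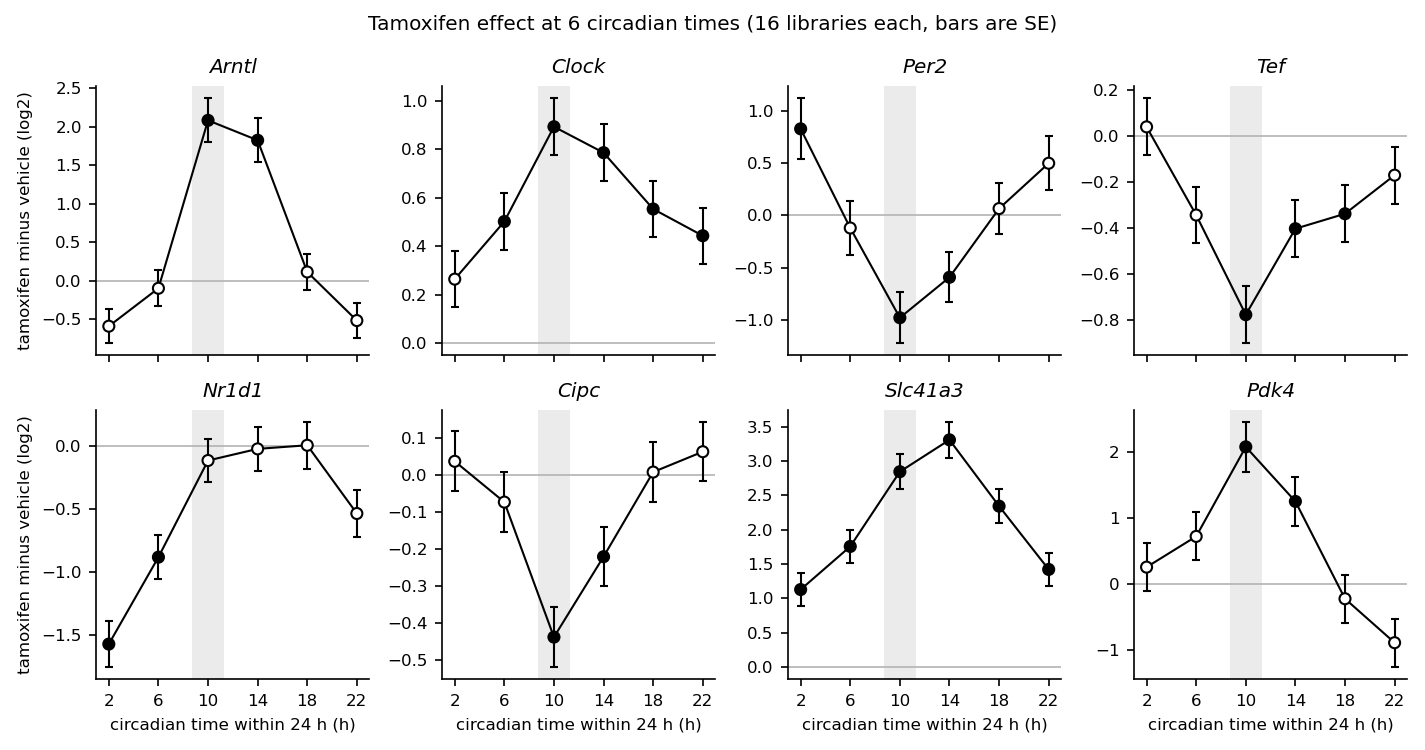
Tamoxifen minus vehicle on the log2 scale (points, with SE bars) at 6 circadian times for 8 genes, 16 libraries per time, with late subjective day shaded; filled points passed the test at that time. Arntl stood near 0 or below at 4 of the times and at 2.08 and 1.82 at circadian times 10 and 14, while Slc41a3 was above 1 at every time.

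Arntl in vehicle hearts fell from 43.2 ± 5.90 CPM at circadian time 2 to 2.21 ± 1.62 CPM at 10 and 2.62 ± 0.99 CPM at 14 (SD, n = 8 each; scaled over the 96 libraries). With tamoxifen it went from 28.7 ± 2.56 to 9.14 ± 4.23 and 8.99 ± 2.62 CPM. The tamoxifen effect was -0.59 ± 0.22 at 2 h (adjusted p = 0.0609), -0.10 at 6 h, 2.08 ± 0.29 at 10 h and 1.82 ± 0.29 at 14 h. Levels with tamoxifen therefore lay below those of vehicle where vehicle was high and above them where it was low, though the fall at 2 h did not pass. The time-specific call held when any 1 of the 16 late-day libraries was left out (1.79 to 2.25) and was lost in 4 alternatives, with the difference still 1.41 or larger: male libraries alone (adjusted p = 0.323), the second 24 h alone (0.569), without the 10 high-TEC vehicle males of all times (0.131) and with limma voom (0.066).

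Genes next in line had adjusted p from 0.0683. Pdk4, at 1.86 ± 0.41 (adjusted p = 0.0683), had vehicle means of 968 CPM at circadian time 22, 726 CPM at 2 h, 296 CPM at 10 h and 204 CPM at 14 h, and tamoxifen means of 515, 874, 1282 and 513 CPM. Its effect was -0.88 ± 0.37 at 22 h (adjusted p = 0.135) and 2.08 ± 0.38 at 10 h (adjusted p = 4.4e-05). Pnpla3 differed by 1.49 ± 0.34 (adjusted p = 0.0733) and Per2 by -1.11 ± 0.27 (adjusted p = 0.0863). Per2 was lower with tamoxifen at 10 h (65.4 to 33.5 CPM) and higher at 2 h (5.12 to 9.07 CPM, adjusted p = 0.0476). Chosen after their values were seen, Prodh, a proline-degrading enzyme (-0.63 ± 0.14), Stc2 (-0.45 ± 0.10), Cipc, a CLOCK-interacting repressor (-0.40 ± 0.09), and Tmem234 (-0.20 ± 0.04) had the same adjusted p of 0.0683. Prodh had no overlap in the 16 libraries, with 43.4 to 64.3 CPM in vehicle and 20.5 to 33.9 CPM with tamoxifen.

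Some other genes were changed at late day and at all other times alike in sign. Slc41a3 with tamoxifen stayed between 223 and 264 CPM at the 6 times, while vehicle means went from 125 CPM at 2 h to 24.5 CPM at 14 h. Its effect was therefore 1.13 at 2 h, 2.84 at 10 h and 3.31 at 14 h, and the time-specific difference (0.85 ± 0.26) did not pass (adjusted p = 0.284). Ciart, Cdkn1a, Clcn1, Strit1, Ptgds, Hcn2 and Kcnv2 passed at each of the 6 times. Nr1d1 passed at 2 of the times, with an effect of -1.57 ± 0.18 at 2 h and -0.88 ± 0.17 at 6 h. It did not pass at 10 h (-0.12 ± 0.17, vehicle 123 CPM and tamoxifen 114 CPM), 14 h (-0.03), 18 h (0.0023) or 22 h (-0.54). Cry2 passed at the other 5 times and not at 10 h, but its time-specific difference (-0.27 ± 0.09) did not pass (adjusted p = 0.292). The difference of Nr1d1 at 10 h from the other times (0.48 ± 0.19) did not pass (adjusted p = 0.473).

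**Figure D4:**
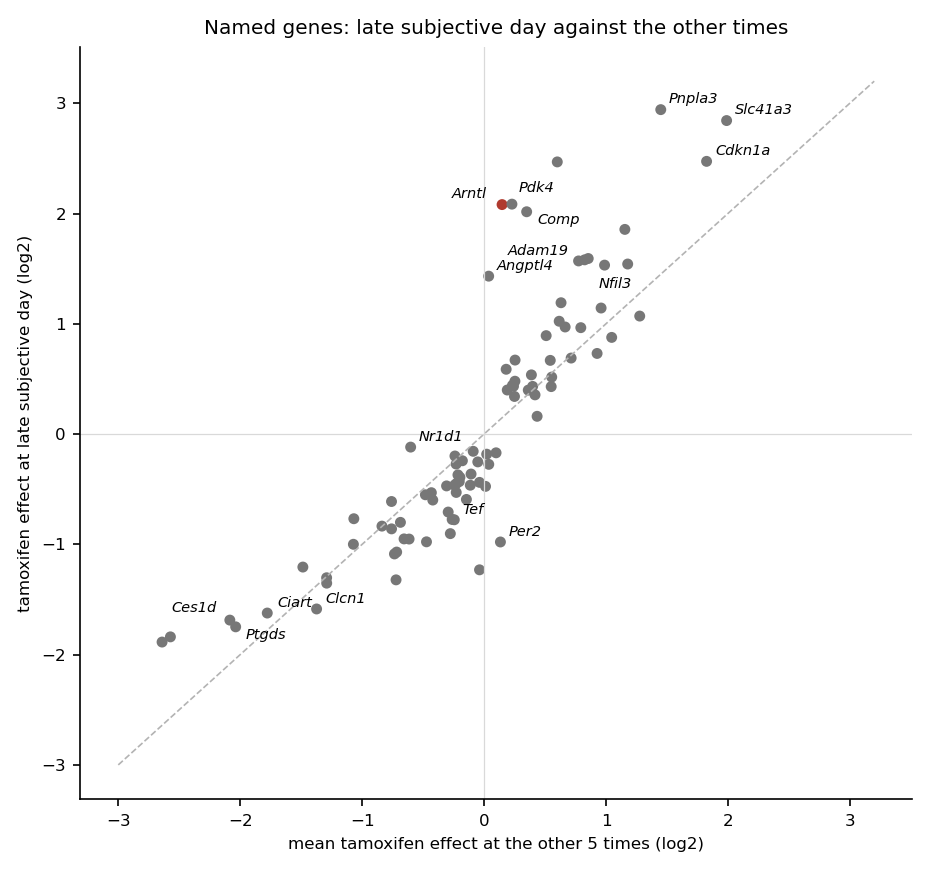
Each point is a gene named in the text by the selection rule or among the clock lists, with the mean tamoxifen effect at the other 5 times on the horizontal axis and the effect at late subjective day on the vertical axis (log2); the dashed line marks equality. The red point is Arntl, which passed the time-specific test, and Pdk4 and Comp lie near it, at 2.08 and 2.02 on the vertical axis, without passing.

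Without the 3 low-Arntl tamoxifen libraries, 36 genes passed the time-specific test, 17 higher and 19 lower, Arntl among them. They held Pdk4 (2.15 ± 0.44), Pnpla3 (1.89 ± 0.31), Slc41a3 (1.24 ± 0.25), Adam19, a metalloproteinase (1.13 ± 0.20), Nfil3 (0.90 ± 0.17), Clock (0.61 ± 0.13) and Irs1 (0.64 ± 0.15) among the higher. Usp2 (-0.87 ± 0.14), Tcap (-0.89 ± 0.18), Prodh (-0.79 ± 0.16), Tef (-0.68 ± 0.15), Bhlhe41 (-0.48 ± 0.11) and Cipc (-0.46 ± 0.10) were among the lower. Tam_M_ct54_556 and Tam_M_ct38_531, also under 6 CPM of Arntl, stayed in. The 3 libraries were removed at this time only and by the level of Arntl, so these values are a description. Of the 3, 2 are from ct58: the effect on Arntl was 2.84 in the ct34 libraries alone and 1.5 in those of ct58, that on Pdk4 2.83 and 1.22, and the difference between the days was not tested. At ct34 alone 86 genes passed and at ct58 alone 0 (2269 at an unadjusted p of 0.05).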

How the data were processed

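The deposited table holds raw counts of poly-A RNA per gene for 96 ventricle libraries, made by the authors and not normalized; the submitters' processing notes name HISAT2, Picard and HTSeq and the builds GRCm38 and mm10, with no versions stated there. RNAs without a poly-A tail are largely missed, and gene-level counts merge isoforms and may share reads between overlapping genes. Of 55376 symbols 54486 matched GENCODE M21 on GRCm38, and 26 date-like names (0.135% of counts) stayed in.

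Groups came from titles and treatment labels. In R 4.3.3 with edgeR 4.0.16, genes were filtered (filterByExpr, minimum count 10), scaled by TMM and tested by the quasi-likelihood F-test with Benjamini-Hochberg adjustment over all tested genes. The comparison at late subjective day used 16 libraries with sex as a block (13 residual degrees of freedom). Time-specific contrasts used 96 libraries with 24 means of treatment, sex and time (72 residual degrees of freedom). Standard errors are the log2 change over the root of F. Alternatives were DESeq2 1.42.0, limma 3.58.1 voom, other scaling and filters, and subsets of libraries.

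Named genes are all clock list members, the 10 highest and 10 lowest called changes with at least 5 CPM, up to 2 called members in each direction of each other list, and the 4 sex differences of smallest p; genes of the Y chromosome and Xist were left out, and some genes that the rule names are not reported here. The members and lists were chosen with earlier results of these data known.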

Additional observations from a re-analysis of the deposited data

Results flagged for a closer look

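Within groups of 4 libraries, 24 of 344 groups of levels of the genes reported here (6.98%) held a library whose gap to its nearest neighbour exceeded the critical value of Dixon for 4 samples; chance gives about 1 in 20. Of the 24, 14 were in 1 library, Tam_F_ct58_565. Its levels in CPM, each away from the other 3 tamoxifen females, were Npas2 2.36, Per3 91.1, Ciart 39.5, Dbp 264, Tef 330, Nfil3 9.1, Coq10b 79.3, Adam19 35.6, Ano4 10.7, Ces1d 202, Ptgds 325, Ighg2c 5.1, Irs1 48.3 and Stc2 30.3.
Levels apart in other libraries, in CPM, were Klf15 35.8 in Tam_F_ct34_583; Gm4841 30.1 and Flt1 154 in Tam_F_ct58_595; Pdk4 2752 and Tmem234 48.4 in Tam_M_ct34_582; Cipc 113 in Veh_F_ct34_423; Per2 63.9, Fbxw11 77.5 and S100a8 1.03 in Veh_F_ct58_453; Myh7b 262 in Veh_M_ct58_33.

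The tamoxifen effect on Arntl at late subjective day differed by 1.93 on the log2 scale from its mean at the other 5 times and by 2.18 from that at mid subjective day, in the test of the difference.
The effect differed between females and males, by the interaction test, for 23 genes reported here. On the log2 scale, female minus male, the difference was positive for Arntl2 0.71, Kcna5 0.69, S100a1 0.62, Myh7b 1.52, Pfkfb2 0.74, Naprt 0.43, Mt1 0.66, Ddit3 0.93, Esam 0.60, Tmem234 0.30, and negative for Cry2 -0.48, Nampt -0.79, Wee1 -0.80, Fbxw11 -0.73, Btrc -0.51, Kcnj11 -1.35, Casq2 -0.95, Myom1 -0.77, Etfdh -0.77, Fundc1 -0.75, Nt5c1a -4.01, Adcy9 -2.32, Pm20d2 -3.48. Without the 3 vehicle males with a high TEC share, Veh_M_ct58_33 is the only vehicle male left, so only sizes are given for that fit. Kcnj11, Nt5c1a, Adcy9 and Pm20d2 stood at -0.97, -3.54, -2.48 and -3.10 in it. Others fell in size, such as Etfdh to -0.26, Pfkfb2 to 0.31 and Esam to 0.24.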

How the results depend on the processing

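No paired analysis was possible because the groups share no replicate numbers in the titles. Alternatives with the day labels or the sexes alone were planned. Leaving out the low-Arntl libraries was listed as planned for the late-day and time-specific counts. Its cut of 6 CPM lies in the gap between the levels seen in the tamoxifen libraries, so it depends on the data. Alternatives that leave out high-TEC, high-Myl7 or single odd libraries were chosen after seeing the data. So were the fit with a mean per treatment and sex and the robust spread. The count at late subjective day, 1376, became 2516 with DESeq2, 4302 in the fit of all 96 libraries, 4175 with a mean per treatment and sex, 86 for ct34 alone, 0 for ct58 alone, 101 for females, 5431 for males and 162 without the 3 high-TEC vehicle males; the cause of these differences was not tested. Leaving out 1 library gave 424 to 2166 calls: 2166 without Tam_F_ct58_565, 424 and 711 without Tam_M_ct58_594 and Tam_M_ct58_562, 520 and 779 without Veh_M_ct34_13 and Veh_M_ct34_14, and between 520 and 711 without Tam_M_ct34_582 or Veh_M_ct58_32. It stayed within 1.5 times under RLE scaling, library size alone, no filter, the cycle as a block, and without the low-Arntl or high-Myl7 libraries.

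The time-specific count, 1, became 4 with library size alone, 0 with voom, 2 with no filter, 4 in the first and 3 in the second 24 h, 0 in males, 36 without the low-Arntl libraries, 0 without the 10 high-TEC vehicle males of all times, 3 without Tam_F_ct54_559, and 1 to 12 without 1 library (12 without Tam_F_ct58_565, 5 without Veh_M_ct58_32); it stayed 1 with RLE scaling, in females and with the robust spread. Counts of 0 had 1414 genes at an unadjusted p of 0.05 with voom, 1934 in males and 1269 without the high-TEC males. Without the low-Arntl libraries the contrast with mid day gave 4 genes and that with early night 2. Sex differences, 4425, became 356 without the 3 high-TEC vehicle males and 3232 to 5845 without 1 library; with library size alone 4820 passed, 3128 more positive and 1692 less positive in females. Among named genes called at late day, the value that reversed was Kcnj11 in females only, -0.000626; over all called genes with a value there, 1314 (98.87%) kept their sign, and 4416 of the 4425 sex differences did without the high-TEC males. Nt5c1a, Adcy9 and Pm20d2, not called at late day (1.38, 0.88 and 0.98), stood at -0.15, -0.19 and -0.55 in females only, and Pm20d2 at -0.0011 without the high-TEC males. Of 73 named genes called at late day, 39 held without each single library, 56 without the low-Arntl and 22 without the high-TEC libraries. The low-Arntl set was chosen on Arntl, so its count does not check genes that move with Arntl.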
